A study of Xenopus tropicalis with 6 samples.

Results

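Voltage-gated and related cation channels were followed in the brains of *Xenopus tropicalis* tadpoles in which *dyrk1a*, a gene for a dual-specificity kinase, had been targeted by CRISPR. The members were all genes of the deposited expression table whose symbol marks a sodium channel subunit (*scn*), a voltage-gated calcium channel subunit (*cacna1*, *cacnb*, *cacna2d*, *cacng*), a hyperpolarization-activated cyclic nucleotide-gated channel (*hcn*), the sodium leak channel (*nalcn*) or a transient receptor potential channel (*trpc*, *trpm*, *trpv*). The rule found 48 genes among 15076 tested genes. Of these, 29 encode pore-forming (alpha) subunits and 18 were classed by their names as auxiliary subunits. The remaining gene, *trpc4ap*, matched the rule by its letters only: it encodes a protein that binds TRPC4 and is no channel, and it was kept apart from both classes. Symbols were paired with gene models only in the table of genes that had passed a minimum of 1 cpm (a gene's count scaled to a common library total) in at least 3 libraries, so every member passed that minimum by construction, and channel genes under it were not analysed here. Of the 15076 tested genes, 12509 carried a symbol, and the rule could not find a channel gene among the rest. The rule used names and not levels.

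The CRISPR group consisted of tadpoles injected on both sides at the 2 cell stage with CRISPR reagents against *dyrk1a*, and the control group of uninjected tadpoles. Brains were taken at stage 46, and each group gave 3 libraries of 3 pooled brains each. The authors describe their animals as wild type and of both sexes, with no sex given for these tadpoles. The injected animals were mosaic founders, and the pooled brains were those found most strongly mutagenized when the remaining carcass was genotyped. Because the controls received no injection, an effect of *dyrk1a* mutation and an effect of the injection itself cannot be told apart.

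Sodium and calcium channels open when the membrane depolarizes. Their alpha subunits form the pore and the voltage sensors, and their auxiliary subunits set how many channels reach the membrane and how they open and close. Sodium channels carry the upstroke of the action potential, calcium channels couple it to transmitter release and gene expression, HCN channels carry the pacemaker current, NALCN carries a resting sodium leak, and TRP channels respond to lipids, temperature, osmolarity and other stimuli. Fewer neurons in a brain and less channel RNA per neuron cannot be told apart in libraries of whole brains.

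Library totals were 28100633, 22404838 and 21564980 counts in CRISPR brains, against 35071943, 23947611 and 9603583 counts in control brains, so control replicate 3 was the shallowest. The targeted transcript, *dyrk1a*, had 16.8, 13.2 and 15.01 cpm in CRISPR brains, against 21.4, 10.8 and 14.8 cpm in control brains. The groups overlapped. A transcript count does not read small insertions or deletions and checks nothing of the editing. Over all genes the median log2 fold change was 0.01. The edgeR quasi-likelihood test with Benjamini-Hochberg adjustment called 0.00663% of tested genes at an adjusted p under 0.05, which was 1 gene and no member. DESeq2 called 173 genes higher and 122 genes lower, and the 122 are 0.842% of the genes to which it gave an adjusted p. All log2 fold changes below are CRISPR minus control.

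Most channel genes had lower mean levels in CRISPR brains, by small amounts. The log2 fold change was negative for 35 of 48 members, or 72.9%, against 48.1% of all tested genes, and the median was -0.14 against 0.01. Among the 30 members with a mean above 10 cpm, 25 were negative with a median of -0.18, against 50.7% of all genes above that level. Among the 18 members up to 10 cpm, 10 were negative with a median of -0.08, and this median was -0.21 without CRISPR replicate 1, -0.03 without CRISPR replicate 3 and 0.01 without control replicate 2. The split over all members was also 35 of 48 with DESeq2-type (RLE) size factors and 34 of 48 with upper-quartile factors. The median of all 48 members without each library in turn lay between -0.19 and -0.12.

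No member passed the edgeR test at an adjusted p under 0.05. DESeq2 called 1 member, *scn2b*, which was lower. At an unadjusted p under 0.05 in edgeR, 4 members were lower (8.33%, against 6.14% of all genes) and 1 was higher (against 6.79% of all genes). Without CRISPR replicate 1 the lower count was 5 (10.4%, against 5.35% of all genes under the same omission). It was 13 without CRISPR replicate 2 (27.1%, against 6.79%) and 2 without CRISPR replicate 3 (4.17%, against 5.05%). It was 6 without control replicate 1 (12.5%, against 6.06%), 1 without control replicate 2 (2.08%, against 4.19%) and 2 without control replicate 3 (4.17%, against 3.83%). In 7 members (14.6%) all CRISPR libraries lay below all control libraries, where 9.72% of all genes did so. Among these were *scn2b*, *scn4b*, *cacna2d1*, *cacng2*, *trpc1* and *trpm6*. In 1 member, *trpc4ap*, every CRISPR library exceeded every control library, as in 9.13% of all genes.

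**Figure D1:**
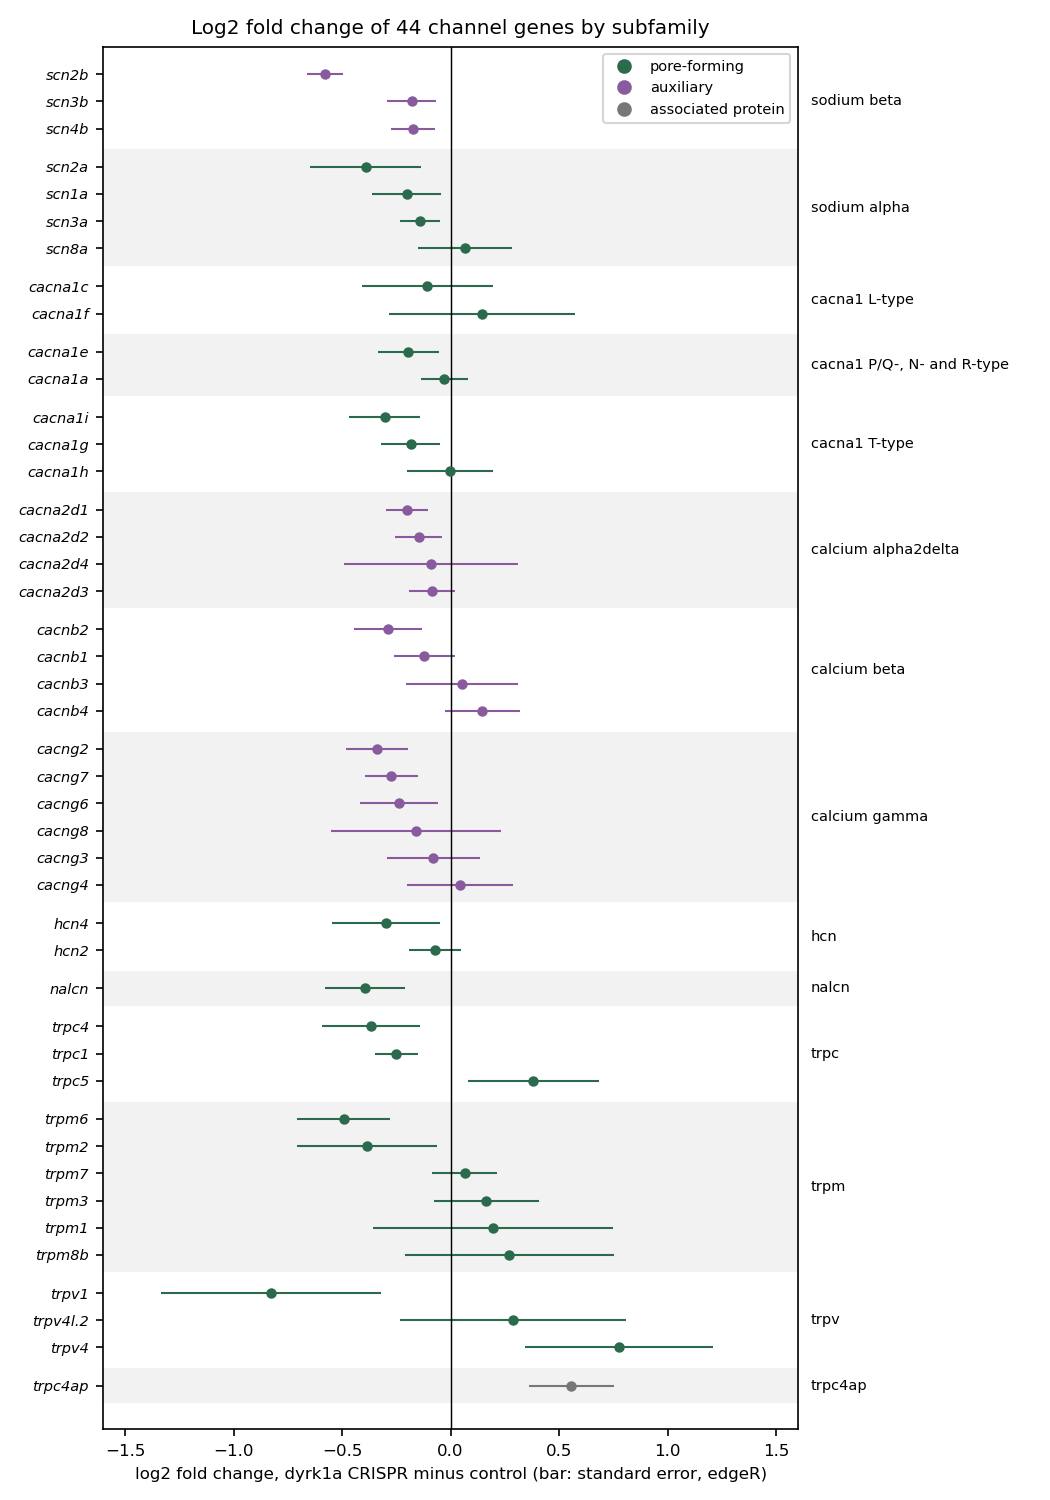
Log2 fold change (CRISPR minus control, horizontal axis) of 44 of the 48 genes with a standard error derived from the edgeR test, grouped by subfamily and coloured by role. Most points lie left of 0, with *scn2b* at -0.58 and a short error bar, while the TRP genes lie on both sides. No point passed an adjusted p of 0.05 in edgeR, and 19 of the 48 members changed sign in at least 1 alternative analysis.

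The member with the smallest p was *scn2b*, which encodes the beta 2 subunit, a single-pass membrane protein with an immunoglobulin-like domain that in mammals is joined to the alpha subunit by a disulfide bond. It had 289, 287 and 266 cpm in CRISPR brains, against 428, 413 and 417 cpm in control brains. All CRISPR libraries lay well below all control libraries, and the libraries of each group lay close together. The mean was 281 ± 12.7 cpm over the CRISPR libraries, against 420 ± 7.98 cpm over the control libraries (SD, n = 3 each), 1.49-fold lower in CRISPR brains (log2 fold change -0.58, SE 0.08). The adjusted p was 0.0696 in edgeR and 1.71e-05 in DESeq2, so *scn2b* fell by the DESeq2 test and missed the threshold in edgeR. Leaving out each library in turn kept the log2 fold change between -0.61 and -0.54, with adjusted p between 0.0903 and 0.258 in edgeR and between 0.000130 and 0.00313 in DESeq2. Without the filter on low counts, the edgeR adjusted p was 0.00553.

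The other beta genes had log2 fold changes closer to 0. The gene *scn4b* encodes the other disulfide-linked beta subunit. It had 165, 152 and 165 cpm in CRISPR brains, against 202, 174 and 168 cpm in control brains. The groups did not overlap, but the highest CRISPR libraries came close to control replicate 3 (log2 fold change -0.17, SE 0.10, edgeR adjusted p = 0.500). The gene *scn3b* encodes a beta subunit that binds without a disulfide bond. *scn3b* had 152, 146 and 178 cpm in CRISPR brains, against 192, 159 and 188 cpm in control brains, and CRISPR replicate 3 lay above control replicate 2 (log2 fold change -0.18, SE 0.11).

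**Figure D2:**
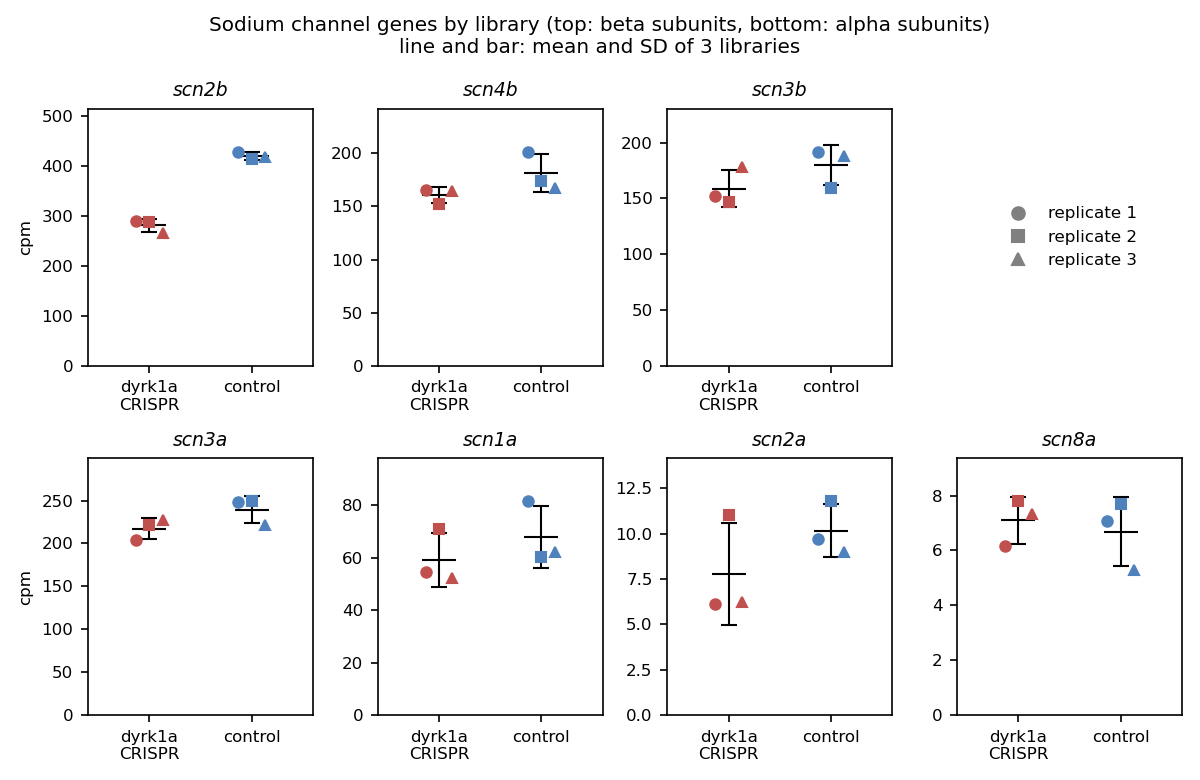
Levels in cpm (vertical axes, each from 0) of 3 sodium channel beta genes in the top row and 4 alpha genes in the bottom row, with CRISPR libraries left and control libraries right. Points are libraries, with marker shape for the replicate number, and the line and bar give the mean and SD of 3 libraries. The *scn2b* groups stand far apart, at 281 cpm on average in CRISPR and 420 cpm in control libraries, while *scn3b*, *scn3a*, *scn1a*, *scn2a* and *scn8a* overlap.

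The *scn2b* difference was also present within libraries, where scaling between libraries plays no part. These ratios were chosen after the values had been seen. The ratio of *scn2b* to its neighbour *scn4b* was 1.75, 1.89 and 1.615 in CRISPR brains, against 2.12, 2.37 and 2.48 in control brains. Relative to the summed sodium alpha genes it was 1.05, 0.903 and 0.888 in CRISPR brains, against 1.21, 1.22 and 1.36 in control brains. Relative to 21 summed genes listed as pan-neuronal it was 0.0253, 0.0256 and 0.0247 in CRISPR brains, against 0.0338, 0.0333 and 0.0327 in control brains. The groups did not overlap in any of these ratios, and the mean ratio to the pan-neuronal sum in CRISPR brains was 0.758 of that in control brains. The two-sided exact permutation p was 0.1 for each ratio, the smallest that 3 against 3 libraries can give. All ratios share the *scn2b* level, whose groups were already known not to overlap, so they are not independent tests.

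**Figure D3:**
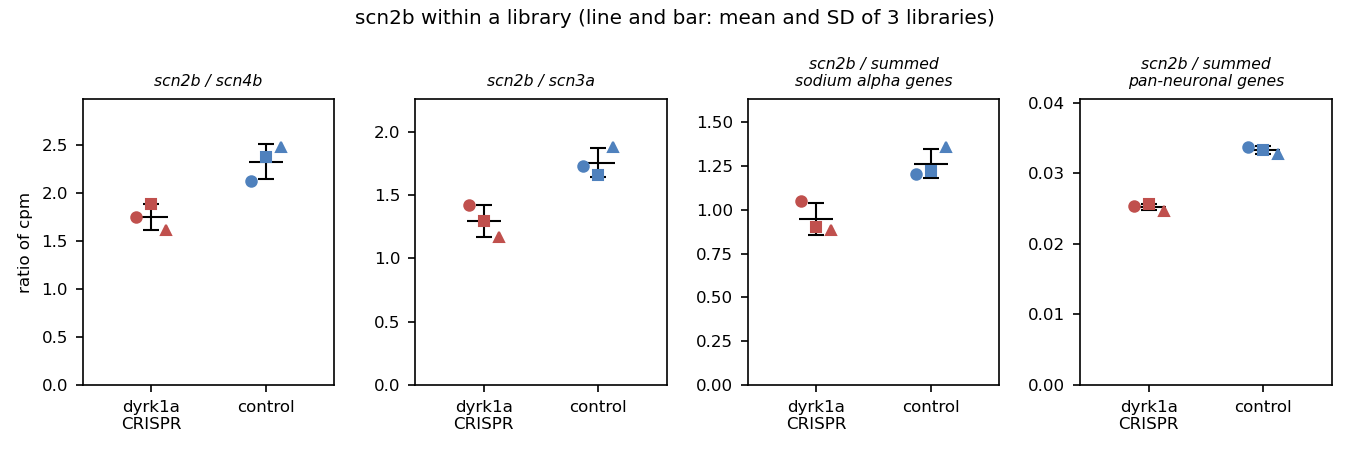
Level of *scn2b* divided by another level in the same library (vertical axes, ratio of cpm, each from 0), with CRISPR left and control right. Points are libraries, and the line and bar give the mean and SD of 3. CRISPR ratios lie below control ratios in all 4 panels, with means of 1.75 in CRISPR and 2.33 in control libraries for the ratio to *scn4b*.

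The difference ran along the whole *scn2b* model. Counts per exon bin were deposited for 5 bins. In each bin the depth-scaled counts of all CRISPR libraries lay below those of all control libraries, with a ratio of group means between 0.589 and 0.769. The first bin held the largest share, 70.7, 69.3 and 74.2% of the gene's bin counts in CRISPR brains, against 71.7, 69.2 and 70.8% in control brains. The shares of all 5 bins overlapped between the groups. In the RefSeq gene order for assembly UCB_Xtro_10.0, which is a later build than the one counted on, *scn2b* lies next to *scn4b*, with *mpzl3* on the far side of *scn2b* and *tmprss4* on the far side of *scn4b*.

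The sodium channel alpha genes *scn1a*, *scn2a*, *scn3a* and *scn8a*, whose channels carry the action potentials of neurons in mammals, had log2 fold changes between -0.39 and 0.07. *scn3a* had 204, 221 and 227 cpm in CRISPR brains, against 248, 249 and 221 cpm in control brains. CRISPR replicates 2 and 3 reached the level of control replicate 3 (log2 fold change -0.14, SE 0.09). The other 3 overlapped, with log2 fold changes of -0.39 for *scn2a*, -0.20 for *scn1a* and 0.07 for *scn8a*.

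Among the pore-forming calcium channel genes, *cacna1a*, which encodes the P/Q-type channel of presynaptic terminals, had almost equal levels. It had 74.6, 74.9 and 67.8 cpm in CRISPR brains, against 77.4, 76.4 and 67.6 cpm in control brains. Each group held its lowest value in replicate 3 (log2 fold change -0.03, SE 0.11), and the sign turned in 3 of 14 alternatives. The R-type gene *cacna1e* had 41.4, 58.8 and 50.8 cpm in CRISPR brains, against 55.8, 60.5 and 56.3 cpm in control brains, with CRISPR replicate 2 inside the control range (log2 fold change -0.19, SE 0.14).

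The T-type genes encode low-voltage-activated channels that support burst firing. *cacna1g* had 29.8, 27.4 and 34.5 cpm in CRISPR brains, against 36.2, 35.2 and 32.5 cpm in control brains (log2 fold change -0.18, SE 0.13). *cacna1i* had 16.1, 18.5 and 19.3 cpm in CRISPR brains, against 18.6, 23.2 and 25.0 cpm in control brains (log2 fold change -0.30, SE 0.16). In both genes only CRISPR replicate 3 lay above the lowest control library. *cacna1h* was level between the groups (log2 fold change -0.00, SE 0.20), and its sign turned in 7 of 14 alternatives. The L-type genes had low counts and varied between libraries. *cacna1c*, the cardiac and neuronal L-type gene, had 6.30, 6.59 and 3.85 cpm in CRISPR brains, against 4.51, 8.30 and 5.18 cpm in control brains. *cacna1f*, the retinal L-type gene, had 3.19, 5.71 and 6.52 cpm in CRISPR brains, against 2.67, 7.97 and 3.06 cpm in control brains. Both had their highest value in control replicate 2, and the sign of each turned without at least 1 library (log2 fold changes -0.11, SE 0.30, and 0.14, SE 0.43).

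The 14 genes named as auxiliary calcium channel subunits had log2 fold changes between -0.34 and 0.15, of which 3 were positive. Of these genes, *cacng2* was the one with an unadjusted p under 0.05 in edgeR. All 4 *cacna2d* genes, whose products lie outside the membrane and promote surface expression, had negative log2 fold changes. *cacna2d1* had 95.5, 103 and 94.6 cpm in CRISPR brains, against 114, 108 and 116 cpm in control brains. The groups did not overlap (log2 fold change -0.20, SE 0.10, edgeR adjusted p = 0.406). *cacna2d2* had 118, 139 and 134 cpm in CRISPR brains, against 146, 156 and 130 cpm in control brains, with control replicate 3 below CRISPR replicates 2 and 3 (log2 fold change -0.15, SE 0.11). The log2 fold changes of *cacna2d3* and *cacna2d4* were -0.08 and -0.09, and that of *cacna2d4* turned without CRISPR replicate 3.

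The *cacnb* genes encode cytosolic beta subunits that bring the pore to the membrane, and 2 of 4 had negative log2 fold changes. *cacnb1* had 96.2, 125 and 100.2 cpm in CRISPR brains, against 105, 138 and 107 cpm in control brains, with replicate 2 highest in each group (log2 fold change -0.12, SE 0.14, and positive without control replicate 2). *cacnb2* had 48.8, 49.3 and 44.4 cpm in CRISPR brains, against 44.4, 63.7 and 66.8 cpm in control brains. Control replicates 2 and 3 were high and control replicate 1 lay level with the CRISPR libraries (log2 fold change -0.29, SE 0.16). Without control replicate 1, DESeq2 called *cacnb2* lower (adjusted p = 0.0458). The log2 fold changes of *cacnb3* and *cacnb4* were 0.05 and 0.15, and the sign of *cacnb3* turned in 3 of 14 alternatives.

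The *cacng* genes include those for TARPs, which carry AMPA-type glutamate receptors to synapses, and 5 of 6 had negative log2 fold changes. *cacng2*, the stargazin gene of mice, had 154, 154 and 106 cpm in CRISPR brains, against 181, 178 and 164 cpm in control brains. All CRISPR libraries were below all control libraries, and CRISPR replicate 3 was the lowest by far (log2 fold change -0.34, SE 0.14, edgeR adjusted p = 0.357). Without CRISPR replicate 3 the log2 fold change was at its smallest, -0.18. *cacng7* had 138, 182 and 151 cpm in CRISPR brains, against 172, 210 and 188 cpm in control brains, with CRISPR replicate 2 above control replicate 1 (log2 fold change -0.27, SE 0.12). The other 4 lay between -0.24 and 0.04. Of these, *cacng3*, *cacng4* and *cacng8* changed sign in 2 or 3 of 14 alternatives.

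The summed auxiliary genes were 1424, 1517 and 1382 cpm in CRISPR brains, against 1746, 1781 and 1710 cpm in control brains. The summed alpha genes were 934, 1016 and 904 cpm in CRISPR brains, against 1040, 1096 and 1035 cpm in control brains. In both sums all CRISPR libraries lay below all control libraries, with ratios of the group means of 0.826 for the auxiliary and 0.900 for the alpha genes. The summed auxiliary over alpha ratio within a library, chosen after the values had been seen, was 1.53, 1.49 and 1.53 in CRISPR brains, against 1.68, 1.63 and 1.65 in control brains. Without *scn2b* it was 1.22, 1.21 and 1.23 in CRISPR brains, against 1.27, 1.25 and 1.25 in control brains, so most of that difference lay in *scn2b*. Gene by gene the medians of the classes were close. The median log2 fold change was -0.15 for the 18 auxiliary genes, of which 15 were negative, and -0.14 for the 29 alpha genes, of which 20 were negative. The classes were not alike in make-up: the alpha class held all 13 TRP genes, of which 6 were negative, and the auxiliary class held none. At an unadjusted p under 0.05, 2 auxiliary genes (*scn2b*, *cacng2*) and 2 alpha genes (*trpc1*, *trpm6*, both TRP genes) were lower in edgeR, or 11.1% and 6.90% of each class, against 6.14% of all genes. The auxiliary class was set by name and includes the *cacng* genes, among them TARP genes such as *cacng2*. The *cacng* genes summed to 325 cpm on average in CRISPR brains, against 397 cpm in control brains. The difference between the classes was not tested.

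Among the pacemaker channel genes, *hcn2* had 129, 137 and 104 cpm in CRISPR brains, against 122, 138 and 129 cpm in control brains. Only CRISPR replicate 3 lay outside the control range (log2 fold change -0.07, SE 0.12), and the sign turned without it. The log2 fold change of *hcn4* was -0.30 (SE 0.25), and its control replicate 2 stood above the other libraries. *nalcn* had 13.1, 10.6 and 10.8 cpm in CRISPR brains, against 17.5, 15.3 and 12.3 cpm in control brains. CRISPR replicate 1 lay above control replicate 3, and the rest of the CRISPR libraries lay below every control library (log2 fold change -0.39, SE 0.18).

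The TRP genes were split in direction. Of 34 sodium, calcium, HCN and NALCN genes, 29 had negative log2 fold changes with a median of -0.17, while 6 of 13 TRP genes were negative with a median of 0.07. That TRP median was negative without 5 of the 6 libraries in turn, between -0.21 and 0.02, and the difference between the sets was not tested. Most TRP genes had means up to 10 cpm, where 43.3% of all genes were negative with a median of 0.06. The summed TRP level was 309, 310 and 267 cpm in CRISPR brains, against 312, 339 and 348 cpm in control brains. The groups did not overlap, and the ratio of means was 0.887, beside 0.849 for the 34 other genes. *trpc1* held most of the TRP sum in cpm. *trpc1*, which in mammals joins other TRPC subunits in mixed channels, had 199.5, 203 and 175 cpm in CRISPR brains, against 211, 237 and 239 cpm in control brains. All CRISPR libraries lay below, with CRISPR replicate 2 close to control replicate 1 (log2 fold change -0.25, SE 0.10, edgeR adjusted p = 0.337). *trpc5* had 2.87, 4.93 and 4.93 cpm in CRISPR brains, against 3.87, 3.24 and 2.43 cpm in control brains (log2 fold change 0.38, SE 0.30), with CRISPR replicates 2 and 3 above every control library. The groups also overlapped in *trpc4* (log2 fold change -0.37, SE 0.23).

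The genes *trpm6* and *trpm7* encode magnesium-permeable channels fused to a kinase. *trpm6* was lower in every CRISPR library, with 3.92, 5.103 and 4.88 cpm in CRISPR brains, against 6.19, 6.73 and 6.66 cpm in control brains (log2 fold change -0.49, SE 0.21, edgeR adjusted p = 0.368). *trpm7* had 54.2, 54.1 and 45.5 cpm in CRISPR brains, against 40.8, 48.3 and 58.6 cpm in control brains, with overlap and a sign that turned without control replicate 1 (log2 fold change 0.07, SE 0.15). *trpm2*, for a channel gated by ADP-ribose, and *trpm3* had log2 fold changes of -0.38 (SE 0.32) and 0.17 (SE 0.24), with overlapping groups and a sign of *trpm3* that turned in 2 of 14 alternatives. The sensory genes were near the filter minimum. *trpv1*, the capsaicin receptor gene, had 1.61, 0.393 and 0.657 cpm in CRISPR brains, against 1.28, 1.74 and 1.90 cpm in control brains (log2 fold change -0.83, SE 0.51). *trpv4*, an osmotic and warmth sensor, had 2.38, 1.53 and 2.35 cpm in CRISPR brains, against 1.63, 1.33 and 0.423 cpm in control brains (log2 fold change 0.78, SE 0.43). They had the most negative and the most positive log2 fold change of all members, and the groups overlapped in both. The log2 fold change of *trpv4l.2* was 0.29 (SE 0.52), and it turned without control replicate 1. *trpm8b*, of the cold receptor family, and *trpm1*, a channel of retinal bipolar cells, lay within 20 percent of the minimum. *trpm8b* had 2.24, 0.654 and 1.13 cpm in CRISPR brains, against 1.34, 1.16 and 0.739 cpm in control brains. *trpm1* had 0.665, 1.003 and 1.45 cpm in CRISPR brains, against 0.610, 0.540 and 1.90 cpm in control brains, and the groups overlapped in both, with signs that turned without at least 1 library.

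The only member that lay higher in every CRISPR library was *trpc4ap*, whose product is also known as an adaptor of a ubiquitin ligase. It had 21.2, 19.1 and 25.2 cpm in CRISPR brains, against 17.8, 11.3 and 15.4 cpm in control brains. CRISPR replicate 2 lay close to control replicate 1 (log2 fold change 0.56, SE 0.20). The adjusted p was 0.292 in edgeR and 0.172 in DESeq2, and 0.0424 in DESeq2 without control replicate 1. The ratio of group means of depth-scaled counts varied along its exon bins. It was 0.823 to 0.851 in bins 3 to 8 and 1.19 in bin 9, where the groups overlapped. It was 1.38 to 2.13 in bins 10 to 20, of which bins 14 and 17 to 20 also overlapped. Bin 21, which held the largest share of the counts, had a ratio of 1.48, with overlap. No bin of this gene passed the edgeR test of exon use given below, where its smallest unadjusted p was 0.0881 (bin 8).

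**Figure D4:**
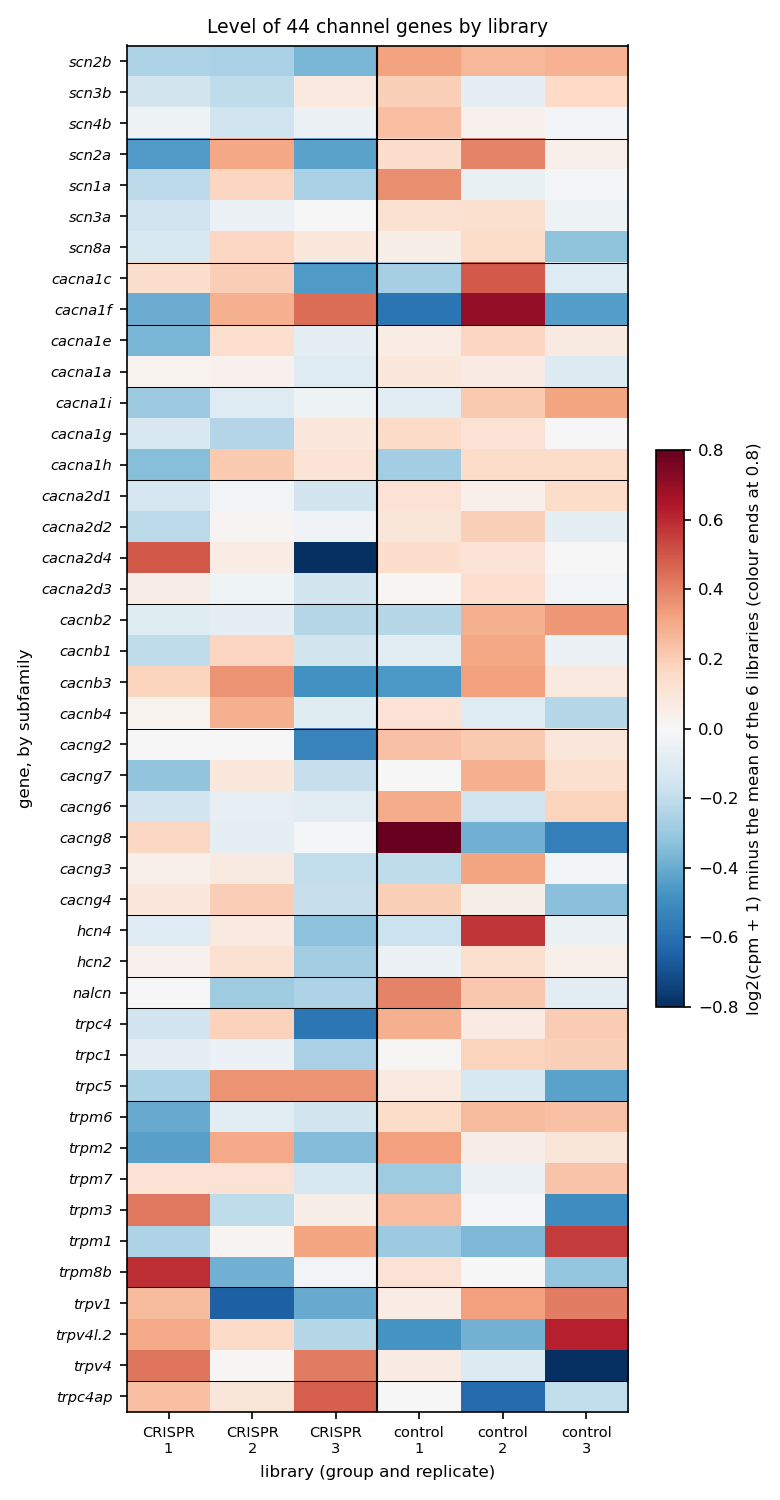
Level of 44 of the 48 genes in each library as log2(cpm + 1) minus the mean of the 6 libraries (colour, ending at 0.8 on either side), with rows grouped by subfamily and CRISPR libraries left of the line. CRISPR replicate 3 was below the gene mean in 38 of 48 members and CRISPR replicate 2 in 18, so the lower levels were not shared evenly by the CRISPR libraries.

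The libraries of a group were not alike for these genes. CRISPR replicates 1, 2 and 3 lay below the gene mean in 29, 18 and 38 of 48 members, while control replicates 1, 2 and 3 lay above it in 32, 36 and 26. CRISPR replicate 3 held the lowest value of 6 libraries in 14 members. CRISPR replicate 2 was the CRISPR library nearest to the controls, and its median deviation, 0.05, was above 0 where those of CRISPR replicates 1 and 3 were -0.11 and -0.14. The summed level of all members was still below the controls in each CRISPR library, with 2379, 2552 and 2311 cpm in CRISPR brains, against 2804, 2888 and 2760 cpm in control brains. Without *scn2b* it was 2090, 2265 and 2044 cpm in CRISPR brains, against 2376, 2475 and 2343 cpm in control brains. Levels in cpm are not corrected for transcript length. Ratios and sums across genes were therefore compared between groups only, and they do not give relative transcript numbers of different genes.

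No exon bin of the channel genes was called as used differently. Of 1078 exon bins, 1064 were tested with edgeR diffSpliceDGE, which asks whether a bin differs by another factor than its gene. None passed an adjusted p under 0.05, as was the case for 0% of all 214537 bins tested, and 8 had an unadjusted p under 0.05, or 0.752% against 1.07% of all bins. Because the test called no bin of any gene, it cannot show that exon use in the channel genes was unchanged. With another tool, DEXseq, the paper reports sites of differential exon usage in these libraries. The bins with the smallest p held few counts. Bin 24 of *cacna2d1* had 1, 4 and 4 counts in CRISPR brains, against 0, 0 and 0 counts in control brains. This bin had counts in CRISPR libraries only. Bin 14 of *cacna1g* had 6, 7 and 6 counts in CRISPR brains, against 21, 24 and 7 counts in control brains. Bin 2 of *nalcn* had 15, 15 and 17 counts in CRISPR brains, against 16, 9 and 1 counts in control brains. Each of these bins had an edgeR adjusted p of 0.999999 and sat in a gene of 42 or more bins.

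Genes that work with these channels mostly had small negative log2 fold changes as well. Of 20 genes of the calcium channel partners at the release site, 13 had negative log2 fold changes with a median of -0.15, and 7 were lower at an unadjusted p under 0.05 in edgeR, with 0 higher (35% lower, against 6.14% of all genes, and 0 at an adjusted p in edgeR or DESeq2). The median was -0.05 without CRISPR replicate 3. *snap25* and *syt1* encode a SNARE protein and the calcium sensor of vesicle fusion. *syt1* had 682, 809 and 668 cpm in CRISPR brains, against 833, 942 and 950 cpm in control brains (log2 fold change -0.34, SE 0.10), and the groups did not overlap. The log2 fold change was -0.33 for *snap25*, -0.27 for *cplx1*, which encodes a clamp of the SNARE complex, and -0.26 for *stx1a*, a SNARE of the plasma membrane, and none of these groups overlapped. In the 24 genes of calcium handling outside the family the median was -0.12 (-0.20 without CRISPR replicate 2 and -0.08 without control replicate 1), and 4 were lower at that p (16.7%), with 0 higher. *camk2d*, for a calmodulin-dependent kinase subunit, had 334, 347 and 337 cpm in CRISPR brains, against 416, 416 and 415 cpm in control brains (log2 fold change -0.29, SE 0.08, edgeR adjusted p = 0.179), with no overlap and little spread. The log2 fold change was -0.31 for *camk2b*, -0.42 for the sodium and calcium exchanger gene *slc24a2* and -0.25 for the calcium pump gene *atp2b4*.

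Of 17 sodium channel partners, 12 had negative log2 fold changes with a median of -0.10 (-0.07 without control replicate 3). *fgf12*, for an intracellular factor that binds sodium channel alpha subunits, and *cntn1*, for a cell adhesion partner of the beta subunits, had an unadjusted p under 0.05 in edgeR, with log2 fold changes of -0.33 and -0.22, and in both all CRISPR libraries lay below. These were 2 of 17 genes (11.8%), against 6.14% of all genes lower at that p and 9.72% with all CRISPR libraries below. *ank3*, for the ankyrin that anchors sodium channels at the axon initial segment, had 56.5, 54.6 and 47.8 cpm in CRISPR brains, against 49.6, 40.9 and 25.9 cpm in control brains (log2 fold change 0.43, SE 0.20). It pointed the other way from the channels, with overlap of CRISPR replicate 3 and control replicate 1. That of *cntnap2* was -0.13. Of 6 HCN and NALCN partners, *fam155a*, which encodes a subunit of the NALCN complex, had 28.8, 29.7 and 30.3 cpm in CRISPR brains, against 37.3, 40.4 and 45.1 cpm in control brains (log2 fold change -0.46, SE 0.13, edgeR adjusted p = 0.184, DESeq2 adjusted p = 0.0533). All CRISPR libraries were below all control libraries. The log2 fold changes of *fam155b*, *unc79* and *pex5l* were 0.27, 0.11 and 0.14, and the median of the 6 genes was 0.03, between -0.06 and 0.06 without each library in turn. Of 6 genes of the sodium and potassium pump, which restores the ion gradients, 5 had negative log2 fold changes with a median of -0.22. The beta subunit gene *atp1b2* fell by the DESeq2 test only (log2 fold change -0.82 in edgeR, edgeR adjusted p = 0.195, DESeq2 adjusted p = 0.0492), and had 8.16, 5.67 and 8.30 cpm in CRISPR brains, against 15.6, 9.97 and 13.6 cpm in control brains. Leaving out any 1 library other than control replicate 2 ended the DESeq2 call, with adjusted p up to 0.268. The log2 fold change of *atp1b1*, for another beta subunit, was -0.30.

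Most genes of the pan-neuronal list lay in the same direction as the channels. The list also holds *gad2*, *slc17a6* and *slc17a7*, which mark neurons by transmitter and not all neurons. Of 24 listed genes 21 were tested, and 17 of them had negative log2 fold changes with a median of -0.16 (-0.08 without CRISPR replicate 3). Their summed level was 11419, 11214 and 10774 cpm in CRISPR brains, against 12684, 12398 and 12752 cpm in control brains, a ratio of means of 0.883 beside 0.857 for the members and 0.890 for the members without *scn2b*. *snap25* had the highest level of these 21 genes, averaging 2857 cpm in CRISPR and 3602 cpm in control brains, and weighed most in that sum. At an unadjusted p under 0.05 in edgeR, 6 were lower (28.6%, against 6.14% of all genes), among them *gad2* and *rbfox3* with log2 fold changes of -0.34 and -0.29. *snap25* and *syt1* are also among these 6 and belong to the release site partners as well. The counts and sums of those lists are therefore not independent. The neuronal tubulin gene *tubb3* was higher at that p, averaging 613 ± 87.1 cpm in the CRISPR libraries, against 509 ± 11.6 cpm in the control libraries (SD, n = 3 each, log2 fold change 0.27, edgeR adjusted p = 0.334), and the groups did not overlap. All 17 neural progenitor genes had positive log2 fold changes (median 0.39). Of these, 11 had an unadjusted p under 0.05 in edgeR, where 6.79% of all genes were higher at that p. DESeq2 called 5 of them, where it called 173 of 14490 genes higher. The progenitor sum was 5066 to 5681 cpm in CRISPR brains, against 3813 to 4636 cpm in control brains. *cdk1*, *top2a* and *mcm2*, genes of dividing cells, and *msi1*, for an RNA-binding protein of progenitors, were among those DESeq2 called, with log2 fold changes of 1.70, 1.36, 0.77 and 0.39 in edgeR. Without each library in turn, 2 of the 5 DESeq2 calls held (*cdk1*, *top2a*) and 3 were lost at least once. The part of these genes in the channel result was not tested.

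**Figure D5:**
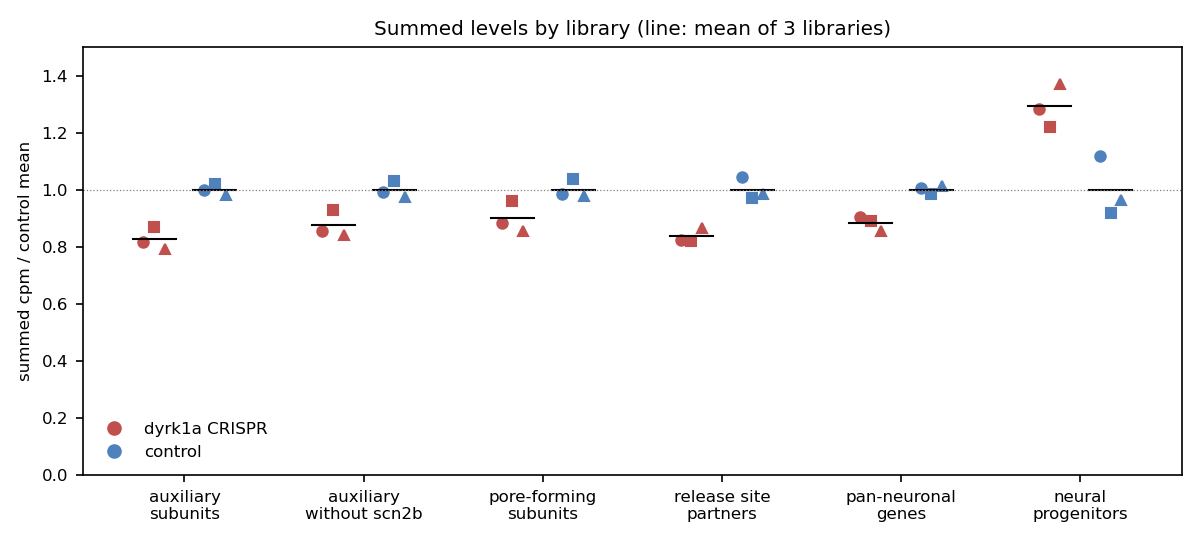
Summed cpm of each gene group in each library, divided by the mean of the control libraries (vertical axis from 0), with CRISPR left and control right of each pair and lines at the means. The auxiliary genes lie at 0.826 of control, the pore-forming genes at 0.900, the release site partners at 0.836 and the pan-neuronal genes at 0.883, while the neural progenitor genes lie at 1.29. The release site and pan-neuronal groups share *snap25* and *syt1*.

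Marker lists of other tissues were summed in the same way. Of 9 myelin genes 7 had negative log2 fold changes (median -0.17), and their sum was 394 to 416 cpm in CRISPR brains, against 545 to 630 cpm in control brains. DESeq2 called *ugt8* lower (adjusted p = 0.185 without control replicate 2), and the log2 fold changes of *ugt8*, *mpz* and *cnp* were -0.77, 1.22 and -0.76. Skeletal muscle genes, of which 13 of 23 listed were tested, summed to 26.6 to 42.2 cpm in CRISPR brains, against 76.5 to 236 cpm in control brains, where control replicate 2 was the highest. Their median was -1.71, and -0.92 without control replicate 2, with *mylpf*, *ckm*, *myl1* and *tnnt3* at -2.73, -2.83, -2.21 and -2.16. DESeq2 called 7 of the 13 lower, against 0.842% of the genes to which it gave an adjusted p. Of these calls, 3 held without each library in turn, and those of *tnni2*, *ocm4.4* and *tnnc2* were lost without control replicate 2, with *ckm* lost without CRISPR replicate 2 or 3. The muscle channel genes *scn4a* and *cacna1s* were not analysed here. Choroid plexus genes summed to 670 to 1031 cpm in CRISPR brains, against 344 to 481 cpm in control brains. Of the 6 tested genes, DESeq2 called *rbp4* higher (log2 fold change 1.33 in edgeR), and *clic6*, *otx2* and *foxj1* had 0.35, 0.11 and 0.23, with a list median of 0.17. The 2 tested epidermis genes, *krt19* and *epcam*, had log2 fold changes of 0.91 and 0.11 (median 0.51), and 6 immune genes had a median of 0.64, with *csf1r*, *lcp1*, *spi1*, *tyrobp*, *ptprc* and *cd74* at 1.03, 0.53, 1.12, 0.75, 0.14 and -0.11. The *ptprc* and *cd74* groups overlapped, and DESeq2 called *csf1r* higher. Eye genes (8 tested, median 0.01, *crx* -0.47, *vsx1* 0.90, *rlbp1* 0.10, *gnat1* -0.24) and endothelium and blood genes (7 tested, median 0.01, *egfl7* -0.17, *hbe1* 0.27, *tek* -0.12, *hba3* 0.17) did not separate. Of 6 genes of peripheral sensory ganglia, which include the member *trpv1*, 5 had negative log2 fold changes (median -0.13), and *prph* and *pou4f1* had -0.13 and -0.20. None of these was lower at an unadjusted p under 0.05 in edgeR. The remaining gene, at 0.71, was higher at that p, as were 6.79% of all genes, and its groups overlapped. No tested marker was at 0 counts in any library. The part of these tissues in the channel result was not tested.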

How the data were processed

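RNA was measured in 6 libraries, each from 3 brains pooled at stage 46. Reads were aligned with STAR (version 2.7.3, per the submitters' processing notes) to the XenBase v9.1 genome and counted per gene and per exon bin without regard to strand. The authors deposited whole-number counts per gene (34229 models) and per exon bin (267746 bins), and a table of log2 values, which equal log2(cpm + 1) within 1e-08 and hold the 15076 genes above 1 cpm in at least 3 libraries. Symbols came from that table. All 48 members had the same symbol in RefSeq (assembly UCB_Xtro_10.0), used only for names and neighbours.

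Genes were tested with edgeR 4.0.16 (R 4.3.3; quasi-likelihood, TMM factors, the filter above, 3 against 3 libraries, Benjamini-Hochberg adjustment over all 15076 genes). Printed levels are cpm with TMM factors. The standard error (SE) of a gene was derived as its absolute log2 fold change divided by the square root of the edgeR F statistic. Common biological variation was 17.6%. Exon bins were tested with diffSpliceDGE in genes of at least 5 counts. Alternatives were DESeq2 1.42.0, limma 3.58.1 (voom, and the deposited log2 values), other size factors, no filter, filterByExpr, a replicate block and each library left out. Scripts were tested on simulated data. Genes named with values were *scn2b* and the other beta genes, members with an unadjusted p under 0.05, per subfamily the member of highest mean and the one of largest change, members near the minimum, up to 4 genes of each of 15 lists and 4 exon bins; further members and list genes were named after their values were seen. The members and lists were chosen with earlier results of these data known. The labels do not say that libraries came from separate clutches, so p-values measure the spread between these libraries. No pair of libraries of a group agreed within sampling noise (chi-square per degree of freedom of 6.55 or more). Some genes that the naming rule selects are not reported here, singly or in the plots by gene, and remain in counts, medians and sums.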

Additional observations from a re-analysis of the deposited data

How the results depend on the processing

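The number of genes called over the whole table was 1 in edgeR, 295 in DESeq2, 180 in edgeR without the filter and 3 with the replicate block, and 0 to 9 without each library in turn. DESeq2 called 208, 342 and 162 genes without CRISPR replicates 1, 2 and 3 and 513, 128 and 149 without control replicates 1, 2 and 3, an alternative added after the data were seen. Among members the count was 0 in edgeR and 1 (*scn2b*) in DESeq2 and without the filter. DESeq2 gave 1 member without each library except control replicate 1, where it gave 3 (*scn2b*, *cacnb2*, *trpc4ap*), 2 of them auxiliary. No alpha gene and no exon bin was called in any alternative run. Members lower at an unadjusted p under 0.05 numbered 4, 2 with the deposited log2 values and 1 to 13 without each library. The sign was kept in all 14 alternatives by 29 of 48 members (25 negative, 4 positive), and the causes of the differences were not tested.

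Deviations from the group means had correlations of -0.13, 0.28 and -0.06 between same-numbered libraries, and the replicate block called 0 members. The deviations of the 3 libraries of a group cancel out, so these correlations are tied to one another. They cannot settle whether the numbers pair the libraries. Differently numbered libraries reached 0.38 (CRISPR replicate 3 with control replicate 1) and -0.37 (CRISPR replicate 3 with control replicate 2). Libraries of different groups thus shared some variation, and its source was not tested. With 3 libraries a group and 9603583 counts in control replicate 3, members near 1 cpm had standard errors of about 0.5 on the log2 scale, and log2 fold changes of -0.83 (*trpv1*) and 0.78 (*trpv4*) did not pass an unadjusted p of 0.05 in edgeR.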

Other observations

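*mpzl3*, which lies beside the *scn2b* and *scn4b* pair in the RefSeq gene order and encodes a membrane protein with an immunoglobulin-like domain, was compared as a neighbouring gene. It had 2.59, 1.31 and 2.11 cpm in CRISPR brains, against 2.79, 2.24 and 1.69 cpm in control brains. The groups overlapped (log2 fold change -0.19, SE 0.36), and the level was too low to show a difference of the size seen for *scn2b*. The only other members that are adjacent in that order are *cacng7*, *cacng8* and *cacng6*, with log2 fold changes of -0.27, -0.16 and -0.24.

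A few members varied more within a group than between the groups and were picked out after their values were seen. *cacng8*, for a TARP of hippocampal AMPA receptors in mice, had 5.81, 4.75 and 5.02 cpm in CRISPR brains, against 10.06, 3.65 and 3.17 cpm in control brains, so control replicate 1 alone was high. *cacna2d4*, an alpha 2 delta gene of the retina, had 4.73, 3.23 and 1.31 cpm in CRISPR brains, against 3.46, 3.36 and 3.06 cpm in control brains, and there the spread was among CRISPR libraries. *cacnb3*, for a cytosolic beta subunit, had 23.9, 27.3 and 14.7 cpm in CRISPR brains, against 15.03, 26.6 and 22.2 cpm in control brains, with a low library in each group.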
